A study of Mus musculus with 4 samples.

Results

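Potassium channel genes were examined in methylated DNA from mouse islets of Langerhans, the clusters of endocrine cells that hold the insulin-secreting beta cells. The members were the autosomal protein-coding genes whose symbol begins with Kcn in the GENCODE annotation of mm10, apart from 3 genes that the rule leaves out, which gave 89 of 20807 autosomal protein-coding genes. DNA was immunoprecipitated with an antibody to methylated cytosine and sequenced (MeDIP-seq) from 2 WT and 2 βRapKO islet libraries of mice 8 weeks old, labelled C57BL/6. The floxed Raptor line was C57BL/6J, while the Cre line was of mixed C57BL/6J and 129/SvJ origin. WT mice carried the Raptor lox/lox alleles without Cre, and βRapKO mice carried the same alleles with RipCre, in which promoter sequence of the rat insulin gene drives Cre. Raptor is a subunit of mTORC1, the kinase complex that couples nutrient supply to growth. The deletion was thus directed at insulin-expressing cells, while the DNA came from whole islets, which also hold alpha, delta and other cells. Methylation of beta cells and the share of beta cells in an islet cannot be told apart here. Immunoprecipitated reads do not measure the deletion, so the genotype labels were not checked. Nothing in the sources says whether the libraries came from separate or pooled animals, so the p-values measure the spread between libraries, which may be technical.

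Potassium channels let potassium leave the cell and so set the membrane voltage. In beta cells, closure of the ATP-sensitive channel after a rise in glucose depolarises the membrane and starts insulin release, while voltage-gated and calcium-activated channels end each action potential. Cytosine methylation in mammals is found mostly at CpG sites. It is generally low at CpG-rich promoters of genes of all tissues, and high in gene bodies and in dispersed repeats.

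Peaks had been called in each library separately, and peaks of the 4 libraries that shared 1 bp or more were joined into 186169 regions. A region belonged to a member when it overlapped the gene or the 2 kb upstream of it. This gave 718 regions at 84 of the 89 genes (94.4%, against 79.9% of all autosomal protein-coding genes, which had a median length of 17.6 kb against 32.0 kb for the members). The 5 members without a region were Kcna1, Kcnk4, Kcnrg, Kcns2 and Kcnv1, all of 10.6 kb or less. A library with no peak in a region has no tag count there, which is not a count of 0, so tests were limited to the 287 regions, at 76 genes, that had a peak in every library (40.0% of member regions and 40.3% of all regions). Tag counts are given as CPM, the count divided by the tags the library kept after duplicate removal (25585533 to 31330751) and multiplied by 1000000. WT replicate 2 was the deepest library and had 151093 peaks, against 117638 to 121186 in the others. It alone gave 107 of the 718 member regions, and 12.9% of all regions.

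Windows of 120 bp were read from the plus strand of mm10, centred on the summit of the peak with most tags in a region. They are printed because they are the places where the antibody signal at these genes was strongest or the genotypes lay farthest apart, and capitals mark CpG sites. The first pair lies in coding exons, at chr19:27323345-27323464 (exon 1 of Kcnv2) and chr15:79485630-79485749 (exon 2 of Kcnj4).
Kcnv2: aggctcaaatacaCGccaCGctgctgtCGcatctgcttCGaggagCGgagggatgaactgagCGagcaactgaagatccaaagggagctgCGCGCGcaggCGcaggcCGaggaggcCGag
Kcnj4: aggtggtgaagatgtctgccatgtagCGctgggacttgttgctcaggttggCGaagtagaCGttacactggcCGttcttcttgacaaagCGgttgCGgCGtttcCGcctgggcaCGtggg
The next 3 lie in introns, at chr15:66047788-66047907 (intron 1 of Kcnq3), chr17:87749336-87749455 (intron 1 of Kcnk12) and chr14:23535319-23535438 (intron 6 of Kcnma1).
Kcnq3: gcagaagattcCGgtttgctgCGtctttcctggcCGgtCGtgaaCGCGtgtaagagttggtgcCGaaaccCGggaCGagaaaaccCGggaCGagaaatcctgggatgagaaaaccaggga
Kcnk12: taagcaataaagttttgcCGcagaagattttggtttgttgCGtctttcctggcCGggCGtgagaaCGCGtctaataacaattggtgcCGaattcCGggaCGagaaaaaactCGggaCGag
Kcnma1: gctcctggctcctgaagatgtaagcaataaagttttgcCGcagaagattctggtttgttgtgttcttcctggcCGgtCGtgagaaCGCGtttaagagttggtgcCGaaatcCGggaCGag
The last 3 come from regions whose genotypes did not overlap in CPM, at chr5:24324323-24324442 (coding part of Kcnh2), chr11:33996676-33996795 (upstream of Kcnip1) and chr16:94960062-94960181 (intron 1 of Kcnj6).
Kcnh2: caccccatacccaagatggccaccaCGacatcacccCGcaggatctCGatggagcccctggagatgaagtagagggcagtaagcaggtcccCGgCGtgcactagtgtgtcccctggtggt
Kcnip1: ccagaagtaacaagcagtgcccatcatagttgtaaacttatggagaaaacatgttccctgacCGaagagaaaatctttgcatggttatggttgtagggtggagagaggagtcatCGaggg
Kcnj6: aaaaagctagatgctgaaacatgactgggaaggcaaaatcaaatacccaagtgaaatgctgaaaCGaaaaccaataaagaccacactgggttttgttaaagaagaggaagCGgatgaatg
The coding and repeat-like intron windows held 8 to 12 CpG sites, and the last 3 windows held 2 to 5.

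The 3 intron windows of Kcnq3, Kcnk12 and Kcnma1 resembled each other although the genes lie on different chromosomes. Those of Kcnk12 and Kcnma1 shared an unbroken run of 29 bases, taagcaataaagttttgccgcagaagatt, and all 3 shared the 11 bases ttcctggccgg. These letters occurred 6502 times on the autosomes, counting both strands, and 84.4% of the copies lay in a region with a peak in all 4 libraries. The search was made after the windows had been read. Among the tested member regions, 20 of 287 (6.97%) held the 11 bases, as did 6.67% of all regions with a peak in all 4 libraries, so the share was close to that of the genome. The regions that held a copy belonged to 10 genes: Kcnb2, Kcnh6, Kcnip4, Kcnk12, Kcnma1, Kcnn2, Kcnq3, Kcnq5, Kcns3 and Kcnu1. They lay mostly in sequence that RefSeq marks as repeat or low-complexity (87.0% of the Kcnq3 region and 89.7% of the Kcnk12 region). Reads from near-identical repeats can be placed at several copies, and how the alignment treated them is not given in the sources used here, so the levels of these regions are uncertain. Most of the member regions lay elsewhere: 94 of 718 (13.1%) were marked over 50% or more of their length, against 24.3% of all regions.

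**Figure D1:**
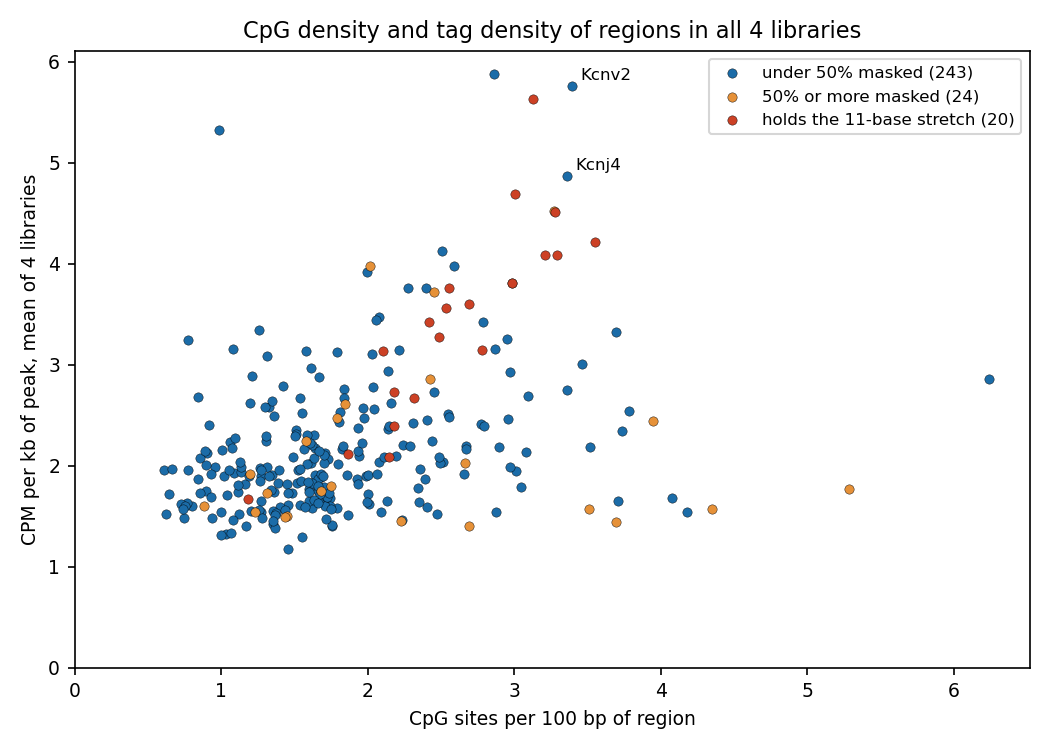
CpG sites per 100 bp of region (x axis) and CPM per kb of called peak, as the mean of the 4 libraries (y axis), for the 287 regions with a peak in every library, 1 point each. Red points hold the 11 bases shared by the 3 intron windows, orange points are otherwise 50% or more marked as repeat, and the rest are blue. The coding exons of Kcnv2 and Kcnj4 lie among the highest points, with several of the red ones.

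The number of regions tended to rise with gene length, but loosely: Kcnd2 had 11 over 514 kb and Kcnk2 had 28 over 194 kb. Kcnma1, the pore of the large-conductance calcium-activated channel, spans 725 kb and had 59 regions, of which 53 were intronic. Kcnip1 and Kcnip4, calcium-binding partners of A-type voltage-gated channels, had 46 regions over 364 kb and 37 over 1135 kb. Kcnh1, a voltage-gated channel of the ether-a-go-go family, had 36, and Kcnj6, a G protein-gated inward rectifier, had 32. Kcnu1, a pH-sensitive channel of sperm, was shorter at 88.3 kb and had 15 regions, 10 of them over coding sequence and 10 with a peak in every library. Kcnq3, a subunit of the M-current channel, had 5 regions over 300.3 kb.

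**Figure D2:**
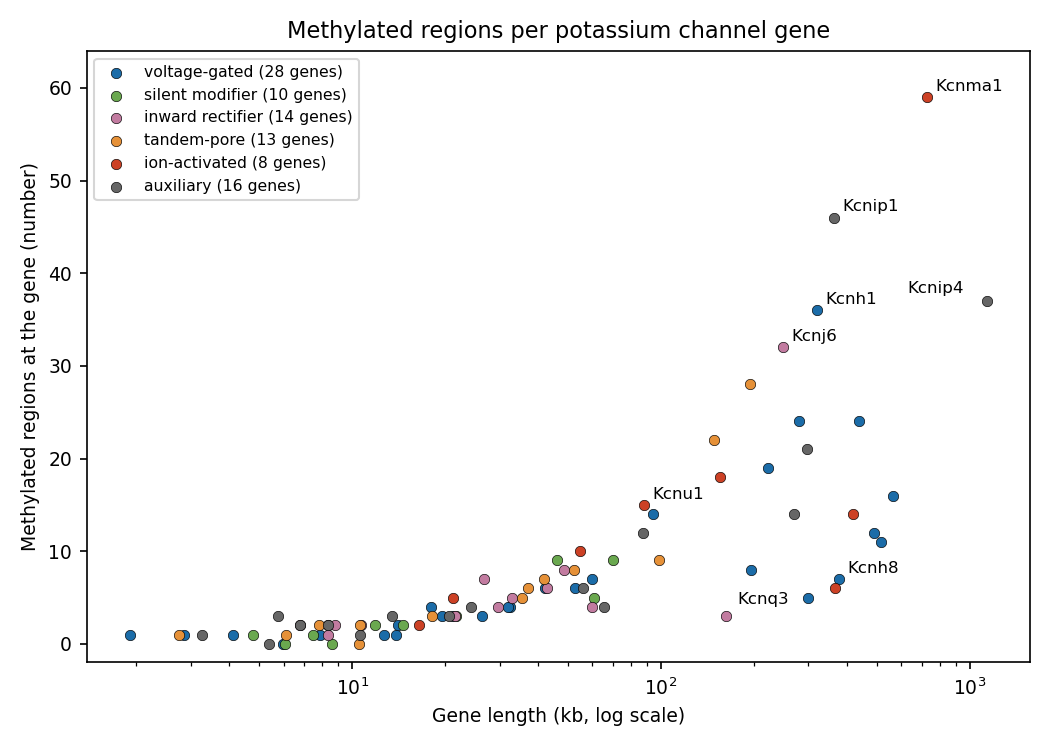
Number of methylated regions (y axis) against gene length in kb (x axis, log scale) for the 89 genes, 1 point each, coloured by channel class. Genes under 10 kb have 0 to 3 regions, and Kcnma1 has the most, 59.

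Counted per gene, 75.1% of the regions were intronic, 18.1% touched an exon and 6.68% lay at a start site (from 2 kb before to 500 bp after the start of a protein-coding transcript). The figures for all autosomal protein-coding genes were 58.8%, 31.5% and 9.60%. The remaining member region was the Kcnip1 region upstream of the gene. Exonic member regions were richer in CpG sites, with a median of 2.03 per 100 bp against 1.36 for intronic regions, and 56.2% of them had a peak in every library against 35.2%. A region covered coding sequence at 71 of 89 genes (79.8%, against 65.2% of all genes). The start base of the principal transcript was covered at 10 genes (11.2%, against 6.81%).

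RefSeq promoter windows of 300 bases (250 before to 50 after a start) were at hand for 68 of the 89 genes, with 93 windows in all. No region in any library reached 87 of the 93 windows (93.5%, against 88.1% of the 31396 windows of all autosomal genes), and 3 were reached in all 4 libraries (3.23%, against 6.26%), at Kcnip1, Kcne4 and Kcnj16. The background windows cover 25748 genes, more than the 20807 protein-coding genes, so that set is not the one used above. The 87 windows held between 0 and 49 CpG sites. The most CpG-rich was that of Kcng3, a silent subunit that changes the gating of other voltage-gated subunits. Its bases from 250 to 101 before the start, at chr17:83631996-83632145 on the minus strand, are shown for contrast with the exon windows, again with CpG sites in capitals.
Kcng3: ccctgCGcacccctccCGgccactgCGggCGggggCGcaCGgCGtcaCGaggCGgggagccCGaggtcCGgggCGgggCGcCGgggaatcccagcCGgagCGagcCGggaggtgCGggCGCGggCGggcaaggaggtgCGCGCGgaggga
These 150 bases held 24 CpG sites and no peak. MACS lists only peaks, so the methylation of such a window was not measured as absent.

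Start-site regions with the most tags were at Kcnv2, Kcnd3, Kcnc2, Kcnj16 and Kcnb2. Kcnv2, a silent subunit best known from the retina, had 13.0 and 14.9 CPM in WT and 12.1 and 12.8 CPM in βRapKO over exon 1 (chr19:27322287-27324645), which put all 4 libraries above any other start-site region. Kcnd3, an A-type channel, had 5.24 and 5.71 CPM in WT and 5.20 and 4.52 in βRapKO over exon 1 (chr3:105458292-105460512). Kcnb2, a delayed rectifier, had 5.12 and 4.72 CPM in WT and 4.35 and 4.49 in βRapKO over exon 1 (chr1:15312156-15313614). In Kcnc2, a fast voltage-gated channel, the region over exon 3 (chr10:112454501-112456842) had 4.77, 5.33, 4.45 and 6.10 CPM (WT replicates 1 and 2, then βRapKO replicates 1 and 2). In Kcnj16, an inward rectifier subunit, exon 2 (chr11:111024253-111026772) had 4.69, 5.81, 4.83 and 4.59 CPM in the same order. The last 2 count as start sites only through alternative transcripts. The Kcnd3 and Kcnb2 regions lie downstream of the annotated gene starts, chr3:105452330 and chr1:15287254. No region in any library reached the Kcnd3 promoter window. The genotypes overlapped in Kcnc2 and Kcnj16, while in Kcnd3, Kcnb2 and Kcnv2 neither βRapKO library reached the lower WT library, by small margins.

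In silent modifier subunits the region with most tags was that of Kcnv2. In voltage-gated channels it was the Kcnq3 repeat region in intron 1 (chr15:66044677-66050373), with 14.5 and 15.6 CPM in WT and 13.8 and 15.3 in βRapKO. In inward rectifiers it was exon 2 of Kcnj4 (chr15:79483462-79486468), with 14.0 and 14.9 CPM in WT and 12.6 and 11.6 in βRapKO. There both βRapKO libraries were lower, with a log2 fold-change of -0.25 ± 0.10 (SE; unadjusted p = 0.041, edgeR adjusted p = 0.858). In tandem-pore (K2P) channels, which carry leak currents, it was the repeat region in intron 1 of Kcnk12 (chr17:87748502-87754580), with 10.7 and 18.5 CPM in WT and 17.9 and 16.2 in βRapKO. WT replicate 1 was the low library there, where its called peaks covered 2979 bp against 5720 to 6079 bp in the others. In auxiliary subunits it was a region of Kcnab2, which encodes a cytoplasmic beta subunit of voltage-gated channels, upstream of the principal transcript (chr4:152458267-152461055), with 10.6, 7.56, 9.65 and 9.63 CPM, so that the genotypes overlapped. In ion-activated channels it was intron 1 of Kcnn2 (chr18:45362117-45365413), a small-conductance calcium-activated channel, with 13.5, 12.0, 13.2 and 13.4 CPM.

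The comparison of βRapKO with WT asked whether methylation at channel genes differed when mTORC1 signalling was lost in insulin-expressing cells. No member region passed edgeR's quasi-likelihood test at an adjusted p below 0.05 with a fold-change above 1.5, lower or higher, and no region of the 75052 tested did either (0.0% in each direction). The lowest adjusted p among members was 0.358. At an unadjusted p below 0.05, 19 member regions were lower in βRapKO (6.62%, against 3.93% of all regions) and 6 were higher (2.09%, against 1.88%). With DESeq2 these counts were 4 and 3, and with limma 19 and 5. With edgeR scaled to the tags in peaks they were 7 and 14, so that the balance turned. Over all 75052 regions the same fits gave 365 and 598, 3011 and 1422, and 656 and 3842. The turn with tags in peaks was thus shared with all regions. No member region passed adjustment in any of these fits. Beyond a fold-change of 1.5 in the first fit, without regard to p, 10 member regions were lower and 3 were higher (backgrounds of 1.77% and 1.29%).

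The median log2 fold-change of the 287 regions was -0.07, and that of all 75052 was -0.06. In 81 regions the higher βRapKO library was below the lower WT library, and in 32 the lower βRapKO library was above the higher WT library (28.2% and 11.1%, against 25.3% and 11.6% of all regions). The lower level in βRapKO was shared with the genome and rested on the scaling: 62.4% of the member regions were lower when scaled to the tags kept, 51.2% with TMM factors, 52.3% with DESeq2 size factors, and 33.8% when scaled to the tags in peaks, where the median turned to 0.09. Sums over the 287 regions were 1001 and 1009 CPM in WT and 929 and 966 CPM in βRapKO.

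By class, the median log2 fold-change was -0.06 over 95 regions of voltage-gated channels, -0.13 over 19 of silent modifier subunits, -0.06 over 28 of inward rectifiers, -0.02 over 38 of tandem-pore channels, -0.12 over 54 of ion-activated channels and -0.05 over 53 of auxiliary subunits. The median of all tested regions was -0.06. At an unadjusted p below 0.05 the lower and higher regions numbered 6 and 0 in voltage-gated channels, 1 and 1 in silent modifiers, 3 and 1 in inward rectifiers, 3 and 2 in tandem-pore channels, 3 and 2 in ion-activated channels, and 3 and 0 in auxiliary subunits. The lower ones made up 5.26% to 10.7% of a class and the higher ones 0.0% to 5.26%, against 3.93% and 1.88% of all regions tested.

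**Figure D3:**
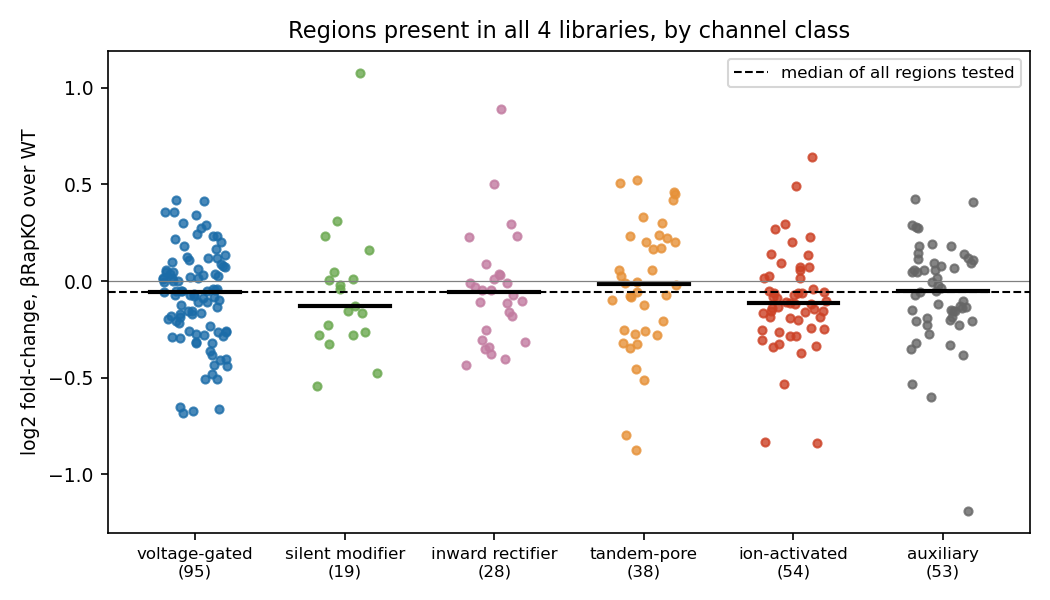
The log2 fold-change of CPM, βRapKO over WT (y axis), for the 287 regions with a peak in every library, by channel class with the number of regions in brackets. Each point is a region, bars are class medians, and the dashed line is the median of all 75052 regions. The class medians lie between -0.13 and -0.02.

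The 82 tested regions over coding sequence had a median log2 fold-change of -0.14, and the 205 others had -0.05. The same split over all autosomal genes gave -0.11 and -0.05. Of the 82, 8 were lower and 0 higher at an unadjusted p below 0.05 (9.76% and 0.0%, against 6.48% and 1.73% of the 15594 coding regions of all genes). They included regions of Kcng4, Kcnh2, Kcnh3, Kcnh4, Kcnj4, Kcnj8 and Kcnj12. This split was made after the values had been seen.

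The regions with the largest fold-changes among those whose genotypes did not overlap were taken in each direction. The lower regions were at Kcnip1, Kcnk3, Kcnn2, Kcnn3 and Kcnk12. The Kcnip1 region (chr11:33994830-33999572), whose window is printed above, had 8.68 and 7.76 CPM in WT and 3.56 and 3.63 in βRapKO. This was a log2 fold-change of -1.19 ± 0.15 (SE; unadjusted p = 5.6e-05, edgeR adjusted p = 0.358), and the region overlaps no Kcnip1 transcript. It belonged to the gene only through the 2 kb upstream, and it lies inside 4930469K13Rik. Its printed window lies more than 2 kb from the Kcnip1 start at chr11:33993152, and so beyond that limit. In intron 1 of Kcnk3 (chr5:30589628-30591730), an acid-sensitive leak channel, the values were 2.93 and 3.22 CPM against 1.88 and 1.47 (-0.88 ± 0.21, edgeR adjusted p = 0.554). Intron 2 of Kcnn2 (chr18:45511467-45513239) had 3.75 and 3.13 against 1.98 and 1.85 CPM (-0.84 ± 0.20, edgeR adjusted p = 0.544). Intron 2 of Kcnn3 (chr3:89592641-89594541), another small-conductance calcium-activated channel, had 2.78 and 3.13 against 1.47 and 1.85 CPM (-0.83 ± 0.21, edgeR adjusted p = 0.603). A further region in intron 1 of Kcnk12 (chr17:87793788-87796650) had 4.57 and 2.74 against 2.50 and 1.68 CPM (-0.79 ± 0.30, edgeR adjusted p = 0.849), where the closest WT and βRapKO libraries almost met.

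The higher regions were at Kcng2, Kcnj6, Kcnn3, Kcnk1 and Kcnj8. Intron 3 of Kcng2 (chr18:80309360-80311122), a silent modifier, had 1.13 and 1.12 CPM in WT and 2.33 and 2.43 in βRapKO (log2 fold-change 1.08 ± 0.19 SE, edgeR adjusted p = 0.381). Intron 1 of Kcnj6 (chr16:94959587-94961356) had 1.29 and 1.5 against 2.46 and 2.74 CPM (0.89 ± 0.20, edgeR adjusted p = 0.526). A second stretch of intron 2 of Kcnn3 (chr3:89578950-89581562) had 2.11 and 2.78 against 4.14 and 3.53 CPM (0.64 ± 0.20, edgeR adjusted p = 0.82). Intron 1 of Kcnk1 (chr8:126013774-126015822), a weakly rectifying leak channel, had 2.15 and 2.11 against 3.42 and 2.64 CPM (0.51 ± 0.21, edgeR adjusted p = 0.858). The region before the start of Kcnj8 (chr6:142573593-142575578), the pore of the vascular ATP-sensitive channel, had 1.49 and 1.92 against 2.05 and 2.81 CPM (0.50 ± 0.24, edgeR adjusted p = 0.858). All 10 had been picked for their size, so these values describe them.

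These differences went with the width of the called peaks. Peaks in the Kcnip1 region covered 4279 and 3825 bp in WT and 2433 and 1526 bp in βRapKO, and CPM per kb of peak were 2.03 and 2.03 in WT and 1.46 and 2.38 in βRapKO, which overlap. In Kcng2 the peaks covered 786 and 805 bp against 1637 and 1763 bp, and the tags per kb were 1.44 and 1.39 against 1.42 and 1.38. In Kcnj6 they covered 625 and 669 bp against 1770 and 1226 bp, with 2.06 and 2.24 against 1.39 and 2.24 per kb. The low Kcnn3 region went from 1710 and 1685 bp to 845 and 1082 bp, with 1.62 and 1.86 against 1.74 and 1.71 per kb. Of the 13 member regions beyond a fold-change of 1.5, 11 had wider peaks in both libraries of the genotype with more tags. On tags per kb 1 of the 13 stayed beyond 1.5, and 4 changed sign. Across the 287 regions, the log2 ratio of peak width and the log2 fold-change of tags had a Pearson correlation of 0.68, and across all 75052 it was 0.65. This is a description, since both come from the same peaks.

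**Figure D4:**
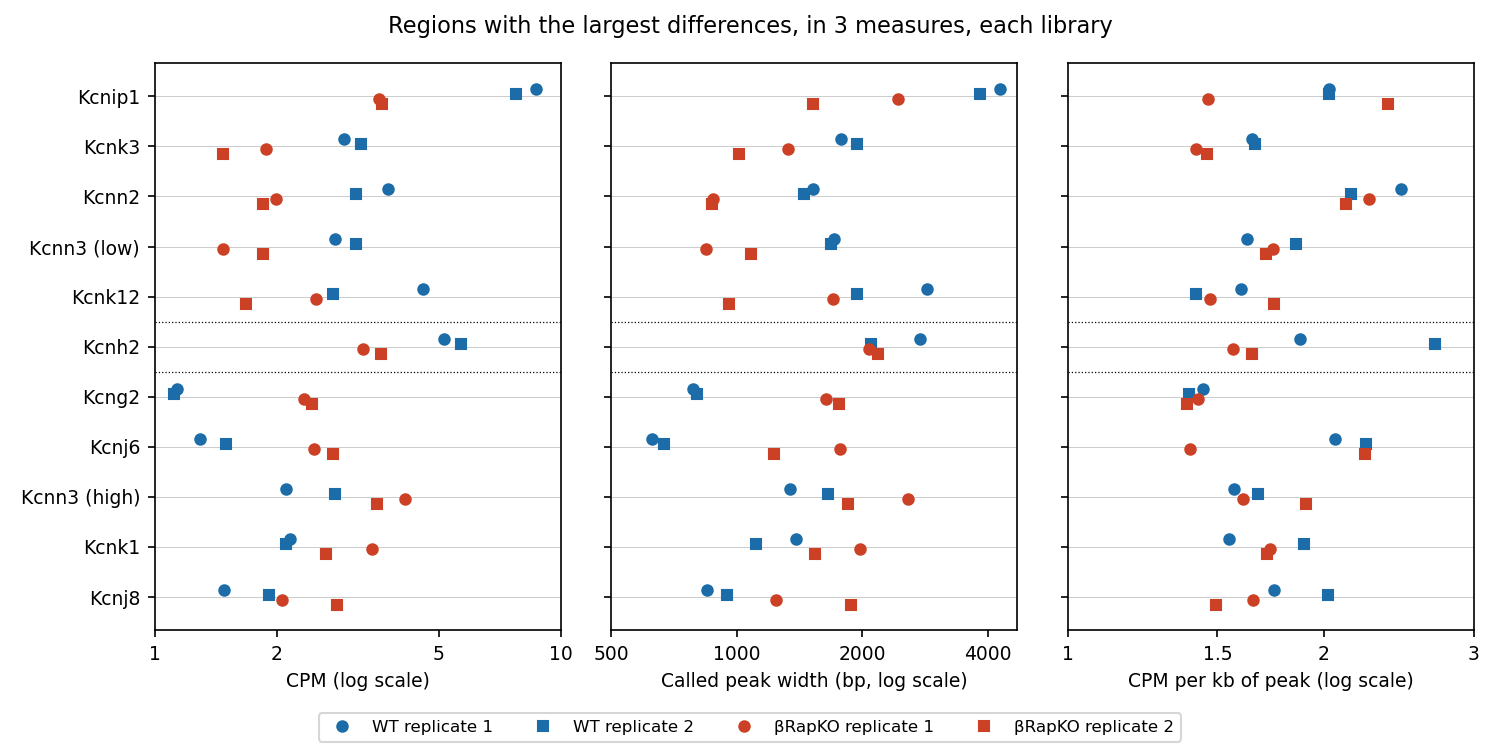
CPM (left), called peak width in bp (middle) and CPM per kb of peak (right), all on log scales, for the 5 lower regions (top rows), Kcnh2 (between the dotted lines) and the 5 higher regions (bottom rows). Blue is WT and red is βRapKO, with a circle for replicate 1 and a square for replicate 2. The genotypes separate on the left in every row, and on the right in Kcnk3 and Kcnh2 and, with βRapKO below WT, in Kcnj8.

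Regions whose βRapKO libraries lay below both WT libraries in CPM and in tags per kb numbered 52 (18.1%, against 16.5% of all regions), and 7 lay above in both measures (2.44%, against 1.87%). Per kb, 80.8% of member regions and 79.8% of all regions were lower in βRapKO, with medians of -0.17 and -0.17, while the median called width was 1330 and 1217 bp in WT and 1331 and 1363 bp in βRapKO. Of the 13 regions beyond 1.5-fold, 4 kept genotypes apart per kb, at Kcnh2, Kcnh3, Kcnip4 and Kcnk3.

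Kcnh2 encodes the ether-a-go-go related channel that repolarises heart muscle, and its strongest region spans coding exons 6 to 9 (chr5:24323662-24326481, with 3.01 CpG sites per 100 bp). It had 5.16 and 5.68 CPM in WT and 3.25 and 3.60 in βRapKO, a log2 fold-change of -0.66 ± 0.16 (SE; unadjusted p = 0.0040, edgeR adjusted p = 0.577). Per kb it had 1.88 and 2.70 in WT and 1.57 and 1.65 in βRapKO, with a fitted difference of -0.51. The fold enrichment at the strongest peak, as the authors' peak caller gave it, was 8.00 and 10.9 in WT and 10.5 and 8.45 in βRapKO, so that measure did overlap. The other Kcnh2 region with a peak in every library, over exon 4, had 2.23 and 3.06 CPM in WT and 1.81 and 2.19 in βRapKO.

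Regions of Kcnh3, Kcnip4 and Kcnma1, singled out after their values had been seen, were lower in CPM, in tags per kb and in fold enrichment. Exons 2 to 3 of Kcnh3 (chr15:99225297-99227479), a voltage-gated channel of the brain, had 4.49 and 4.98 CPM in WT and 3.15 and 2.81 in βRapKO. Its tags per kb were 2.09 and 2.28 against 1.64 and 1.68, and its fold enrichment was 4.21 and 4.86 against 3.20 and 4.10. A region in intron 1 of Kcnip4 (chr5:48496043-48497203) had 1.88 and 1.92 CPM against 1.44 and 1.06, with 2.13 and 2.69 against 1.38 and 1.62 per kb and a fold enrichment of 11.2 and 12.5 against 8.80 and 5.89, and was the region that stayed beyond 1.5-fold per kb. A region in intron 1 of Kcnma1 that lies at the start of an alternative transcript (chr14:23803360-23804390) had 1.80 and 1.5 CPM against 1.16 and 1.10. Its log2 fold-change was -0.53 ± 0.19 (SE; unadjusted p = 0.025, edgeR adjusted p = 0.849). Its peaks were of like width, at 905 and 733 bp against 795 and 753 bp, with 1.99 and 2.05 against 1.46 and 1.46 tags per kb and a fold enrichment of 11.4 and 10.5 against 7.37 and 6.79. All of these regions had an adjusted p well above 0.05.

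A list of 16 channel genes known from islets held 221 of the regions, 87 of them tested. Of the 87, 59 were lower and 28 higher in βRapKO, with a median of -0.10 (67.8% lower, against 60.8% of all regions, whose median was -0.06). At an unadjusted p below 0.05, 7 were lower and 4 higher. These were 8.05% and 4.60%, against 6.62% and 2.09% of all member regions and 3.93% and 1.88% of all regions. The 7 include the Kcnip1 region that overlaps no Kcnip1 transcript. The list was chosen with earlier results of these data known. Kcnk16, an alkaline-activated leak channel largely particular to the pancreas, had 1.68 and 1.63 CPM in WT and 2.05 and 1.75 in βRapKO over exons 4 to 5 (chr14:20262636-20263898), so both βRapKO libraries were slightly above WT. Kcnma1 had its strongest region in the intron 6 repeat, with 7.15, 5.71, 5.92 and 6.03 CPM, libraries in the order used above. Kcnh6, a relative of Kcnh2, had 9.54, 9.86, 10.1 and 9.53 CPM over exon 13 (chr11:106031662-106034181), where 79.3% of the region is marked as repeat.

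Among leak and calcium-activated channels of the list, Kcnk3 had 7.35 and 9.16 CPM in WT and 6.23 and 9.22 in βRapKO over exon 2 (chr5:30620099-30624036). A further Kcnk3 region in intron 1 (chr5:30601809-30603410) had 2.85 and 3.57 against 2.09 and 2.43 CPM (log2 fold-change -0.51 ± 0.20 SE, edgeR adjusted p = 0.858), lower in both βRapKO libraries. Kcnk1 had 6.06, 4.98, 4.65 and 5.45 CPM over exon 2 (chr8:126024425-126026136). Kcnn1, a small-conductance channel, had 3.95, 4.21, 3.87 and 4.46 CPM over exon 4 (chr8:70851953-70853578). Kcnn4, the intermediate-conductance channel, had 2.66, 3.19, 1.85 and 2.78 CPM over exons 5 to 7 (chr7:24381518-24383141). Kcna5, a voltage-gated channel with a single exon, had 1.92, 1.63, 1.88 and 1.99 CPM there (chr6:126533133-126534487). In Kcnk1, Kcnn1, Kcnn4 and Kcna5 the genotypes overlapped.

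The strongest regions of the 2 G protein-gated rectifiers of the list lacked a peak in βRapKO replicate 2. In intron 2 of Kcnj6 (chr16:94849276-94854682) the counts were 11.6 and 11.9 CPM in WT and 6.60 in βRapKO replicate 1. In intron 2 of Kcnj5 (chr9:32338475-32340523) they were 3.13 and 3.61 CPM in WT and 3.42 in βRapKO replicate 1. Neither could enter the test. Kcnip1 had its strongest region in intron 1 (chr11:33754118-33755689), with 8.83 and 9.26 CPM in WT and 8.62 and 8.05 in βRapKO. Another region of that intron (chr11:33733696-33736305) had 3.99 and 4.92 against 2.77 and 3.39 CPM (log2 fold-change -0.53 ± 0.19 SE, edgeR adjusted p = 0.849), and -0.08 per kb. Kcnc2 and Kcnab2, also on the list, are given above.

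Kcnn3 held regions with differences of either sign, none of which passed the adjusted test. Of its 18 regions, 10 had a peak in every library, and in 8 of these βRapKO was lower. The region 60.1 kb from its start was higher in βRapKO, and the one 73.4 kb from it was lower, as given above, while per kb of peak their log2 differences were 0.10 and -0.02. The strongest, 95.2 kb from the start in intron 3 (chr3:89613924-89616845), had 4.69 and 3.77 CPM in WT and 6.13 and 5.72 in βRapKO (log2 fold-change 0.49 ± 0.17 SE, edgeR adjusted p = 0.849). It was also higher per kb, with 1.89 and 1.79 against 2.13 and 2.04, and in fold enrichment, with 5.82 and 6.12 against 7.71 and 7.18. No other member region with an unadjusted p below 0.05 was apart and higher in both CPM and tags per kb.

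**Figure D5:**
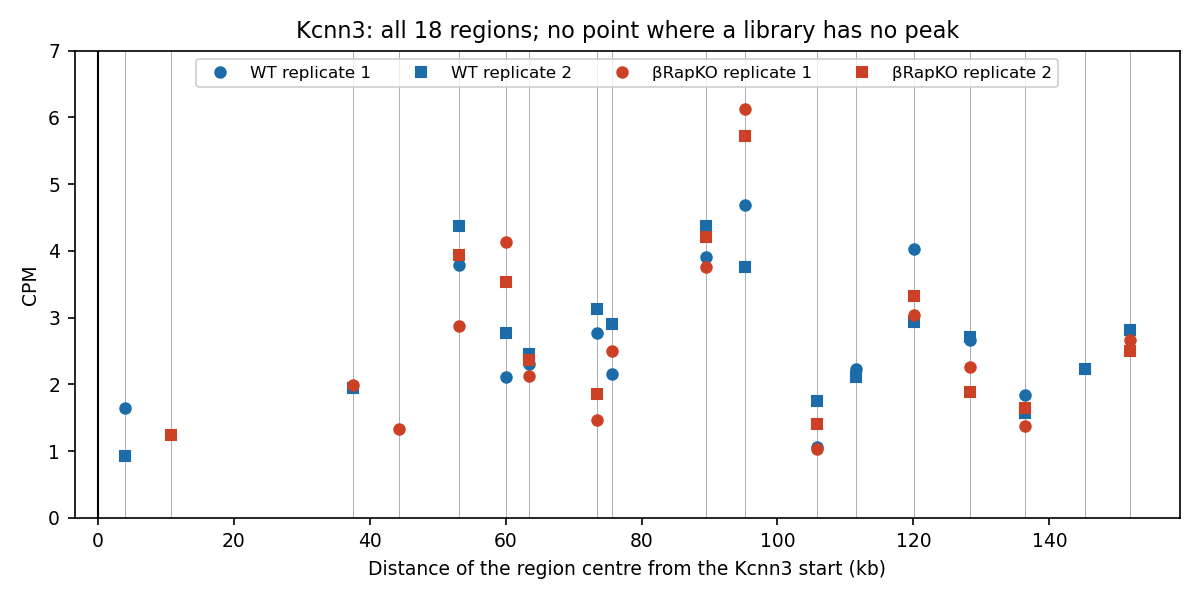
CPM (y axis) in the 18 regions of Kcnn3, placed by the distance of their centres from the gene's start in kb (x axis), 1 point per library with a peak. Blue is WT and red is βRapKO, with a circle for replicate 1 and a square for replicate 2. The regions 60.1 and 95.2 kb from the start are higher in βRapKO, and the one at 73.4 kb is lower.

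Peaks called in both libraries of 1 genotype and neither of the other were about as frequent as in the whole series. There were 30 member regions in WT only (4.18%, against 4.16% of all regions) and 10 in βRapKO only (1.39%, against 1.58%). With equal numbers of top-ranked peaks taken from each library, the counts were 17 and 17. Kcnab2 had both kinds. Its last coding exons, 14 to 16 (chr4:152392112-152394545), were called in WT only, with 5.16 and 4.28 CPM. Exon 11 (chr4:152396235-152397580), with 2.64 and 2.54 CPM, and exon 2 (chr4:152435585-152437768), with 3.83 and 2.13 CPM, were called in βRapKO only.

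The other WT-only regions with most tags were in Kcnip1 (chr11:33926894-33928316), Kcnn3 (chr3:89630792-89632509), Kcnj1 (chr9:32390755-32392456) and Kcnh5 (chr12:75094420-75095964), with means of the WT libraries between 2.15 and 2.72 CPM. Kcnj1 is the inward rectifier of the kidney tubule and Kcnh5 a relative of Kcnh1. Further βRapKO-only regions were in Kcnip1 (chr11:33817701-33819070), with 2.29 and 1.06 CPM, and in Kcnh5 (chr12:75037698-75039060), with 1.23 and 1.75. None of these gives a fold-change, since the count in the other genotype is not known.

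Genes that work with potassium channels, such as their regulatory subunits, the hyperpolarisation-activated channels and the calcium channels that precede them in beta cells, served as a further list of 17 genes. All 17 had a region, with 356 regions in all, of which 122 were tested. None of these passed the adjusted test, 75 were lower and 47 higher in βRapKO, and the median was -0.07, equal to that of the potassium channel regions after rounding. At an unadjusted p below 0.05, 6 were lower and 1 was higher (4.92% and 0.82%, against 3.93% and 1.88% of all regions). Of the 356 regions, 9 were called in both WT libraries only and 11 in both βRapKO libraries only. Over all regions these kinds made up 4.16% and 1.58%, so the partner genes did not share the excess of WT-only regions.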

How the data were processed

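Genomic DNA of islets was immunoprecipitated (MeDIP) and sequenced, and the authors aligned reads to mm10 with Bowtie2 2.2.5. Per the file headers, the authors called peaks in each library with MACS 1.4.2, with no control, a p cutoff of 1e-05, a local background of 10000 bp and 1 tag kept per position. The deposited values are the tag count of each peak, −log10 of its p-value multiplied by 10, and its fold enrichment.

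Peaks were joined across libraries, tags summed per region, and counts of 75052 regions called in every library fitted with edgeR 4.0.16 (quasi-likelihood, Benjamini-Hochberg, tags kept as library size). DESeq2 1.42.0 and limma 3.58.1 were alternatives. Each SE is the size of the log2 fold-change divided by the square root of edgeR's F statistic, so it restates that test. Channel genes and lists were chosen with earlier results of these data known. Named regions were those of the islet list, the region with most tags per class, and the 5 with the largest difference, or with most tags, per direction, genotype or start site, together with the 5 genes with most regions. Positions came from GENCODE vM21, sequences from the RefSeq GRCm38.p6 genome (mm10) and promoter tables. The fit was also run on simulated counts with the same spread for all regions. These left out differences in called peak width, so that run does not check their effect. Windows of 500 bp were not used here, and some regions that the naming rule covers are not reported here.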

Additional observations from a re-analysis of the deposited data

How the results depend on the processing

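No member region passed the adjusted test under any alternative run, which comprised other library sizes, TMM factors, DESeq2, limma, a replicate block, tags per kb, other peak sets, other gene limits and each library left out. The direction of the median was set by the scaling: it was -0.0060 with TMM, -0.0088 with DESeq2, 0.094 scaled to tags in peaks and -0.17 per kb of peak, against -0.07. Regions lower and higher at an unadjusted p below 0.05 numbered 7 and 14 scaled to tags in peaks and 4 and 3 with DESeq2. They numbered 39 and 2 per kb, and 10 and 1 with stricter peaks (a score of 100 or more). With 50 tags or more in every library the higher ones numbered 3. Over all 75052 regions, scaling to tags in peaks gave 656 and 3842, DESeq2 365 and 598, and the fit per kb 9519 and 258. Member regions lower and higher beyond the fold-change were 5 and 12 scaled to tags in peaks and 3 and 0 with stricter peaks. They were 6 and 1 with 50 tags and 1 and 1 for a fold-change of 2, and per kb 1 was higher. Both βRapKO libraries lay below or above both WT libraries in 26 and 77 regions scaled to tags in peaks, 123 and 15 per kb, and 45 and 12 with stricter peaks, and above in 50 with TMM and 14 with 50 tags. WT-only regions fell to 18 with stricter peaks, and with equal numbers of top-ranked peaks 17 were WT-only and 17 βRapKO-only. The cause was not tested.

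Leaving out each library in turn gave 12 to 18 regions lower and 6 to 9 higher at an unadjusted p, 13 to 19 lower and 6 to 10 higher beyond the fold-change, and medians of -0.12 to -0.039. Without βRapKO replicate 2 the median was -0.12 and 19 regions were lower beyond the fold-change; without βRapKO replicate 1 these were -0.039 and 17. Higher regions numbered 10 without WT replicate 1, 9 without WT replicate 2 and 7 without βRapKO replicate 1, and without WT replicate 2 the lower ones at an unadjusted p were 12. With 1 library left in a genotype, it was assumed to vary like the other genotype.

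Of 212 alternative values of the 16 regions given with a fold-change, 208 kept their direction. Most of these regions had been picked for a large difference, and most alternatives refit the same tags, so the 208 lend no support. Tags per kb of peak, which change the measure, turned the direction in 4 of the 16 regions. These values were -0.29 for Kcnj6, 0.067 for Kcnk12, -0.012 for Kcng2 and -0.28 for Kcnj8. Per kb others shrank, to -0.017 for the low Kcnn3 region, 0.0025 for Kcnk1, -0.070 for Kcnn2 and -0.12 for upstream Kcnip1. Kcnh2 and Kcnma1 kept -0.51 and -0.46. With stricter peaks, only Kcnj4, Kcnk12, Kcnn2, Kcnh2, Kcnk1 and Kcnk3 (chr5:30601809-30603410) had a value. With equal numbers of top-ranked peaks, Kcng2 and Kcnip1 (chr11:33733696-33736305) had none. Such missing values are not among the 212. Replicate numbers pair the libraries by name only (correlation of deviations 0.05), and the fit with a replicate block gave 19 lower and 7 higher regions at an unadjusted p and none past adjustment. Depth limits the weakest of these counts, those of the Kcng2 region in WT, where the peaks held 29 and 35 tags.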
